A study of Mus musculus with 16 samples.

Results

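The comparison described here sets 4 microarrays of mouse embryonic fibroblasts (MEFs) labelled 16 h against 4 labelled 8 h. MEFs are connective tissue cells grown out of mouse embryos, and these 8 arrays carry the labels of primary MEFs that were not transformed and served as genetic controls. The members were taken by label alone, and they make up 8 of the 16 arrays in the study. The other 8 are labelled as transformed MEFs, at 0 h or 12 h, with a floxed (Smad1f/f) or deleted (Smad1-/-) Smad1 gene. At each time 1 array is labelled CTRL, 1 BMP2, 1 ADR and 1 with both agents (BMP2+ADR). BMP2 is a secreted growth factor that signals through SMAD proteins, and ADR is Adriamycin (doxorubicin), a drug that traps topoisomerase II on DNA and causes breaks. The doses are uncertain, because among the 8 titles only that of the BMP2 array at 8 h gives one (100 ng/ml), a transformed array's title gives 0.3 uM ADR, and the design text gives BMP2 at 50 ng/ml and doxorubicin at 1 ug/ml. The titles of the CTRL and BMP2 arrays at 8 h carry what reads as a passage number, and no other primary title carries one. Whether all the primary arrays came from the same passage is therefore not known. No label gives the time in culture before treatment, says whether the medium was changed, or names the arrays hybridised together. Time under treatment, time in culture and any array batch therefore cannot be told apart in the difference between 16 h and 8 h.

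Each condition had 1 array, so 16 h minus 8 h gave 4 differences, 1 per agent label, and these 4 pairs were the replication. They do not show the spread between cultures of 1 condition. A level below is a log2 normalized signal. A change is the 16 h level minus the 8 h level on the log2 scale, given with its standard error (SE, n = 4 pairs) from the limma model of time and agent label. A gene rose or fell if its adjusted p (limma, Benjamini-Hochberg) was under 0.05. On the primary arrays 40.1% to 43.8% of the 24613 probes were detected. The precision is limited by how few arrays there are. In bulk RNA, fewer cells of a type and less RNA per cell cannot be told apart.

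Several of the lists followed here stand for known programmes. The transcription factor p53 is stabilised when DNA is broken or growth is disturbed, and it switches on genes that stop the cell cycle (Cdkn1a), limit p53 itself (Mdm2), repair DNA and prepare cell death. Serial passage of MEFs in ordinary oxygen is also known to activate p53. ATF4 is the transcription factor of the integrated stress response, raised when amino acids run short or the endoplasmic reticulum is stressed, and its targets import and make amino acids. Replication-dependent histone genes are transcribed in S phase, when new DNA has to be packaged.

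Genes that these agents are known to move did not all follow the labels, so the groups are named by label throughout. With the ADR label, 5 of 11 tested BMP target genes were higher and 0 lower, in a comparison where 0.233% of all genes were higher and 0.0529% lower. Sct, the secretin gene, was 1.84 ± 0.09 higher on the arrays with the ADR label than on those without (adjusted p 0.00072) and 1.02 higher with the BMP2 label (adjusted p 0.00040). With the ADR label Id3, an inhibitor of differentiation that SMADs induce, was 0.76 higher (adjusted p 0.017). Of 61 tested p53 targets, 0 passed in either direction with the ADR label. With the BMP2 label 22 of the 61 were higher and 2 lower, where 10.2% of all genes were higher and 9.79% lower, and Cdkn1a was 0.98 higher (adjusted p 0.0011). Of the 11 BMP targets, 3 were higher and 4 lower with the BMP2 label, Dlx2 among the higher ones (1.35, adjusted p 0.00025). These label comparisons and the time comparison use the same 8 arrays.

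Of 9457 genes tested, 2782 differed between the times: 1180 rose (12.5% of those tested) and 1602 fell (16.9%). Counts of list members that rose or fell are read against these shares. In 2740 of the 2782 the change had 1 sign in all 4 pairs, and in 1770 the 4 values at 16 h did not overlap the 4 at 8 h. Over all genes tested, 2105 (22.3%) did not overlap. A log2 change of at least 1 was reached by 77 genes that rose and 24 that fell. The balance of directions depended on the scaling: 42.4% of the changed genes rose with quantile normalization, 77.0% with median scaling and 25.5% in the authors' log2 values. The median change of all genes was -0.05, 0.07 and -0.10 under these scalings, and list medians are read against these values. Without any 1 array the count of changed genes lay between 1652 (without either ADR array) and 1812 (without either BMP2+ADR array). In those fits between 776 and 850 genes rose and between 871 and 973 fell. Counts of list members without 1 array are read against these.

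**Figure D1:**
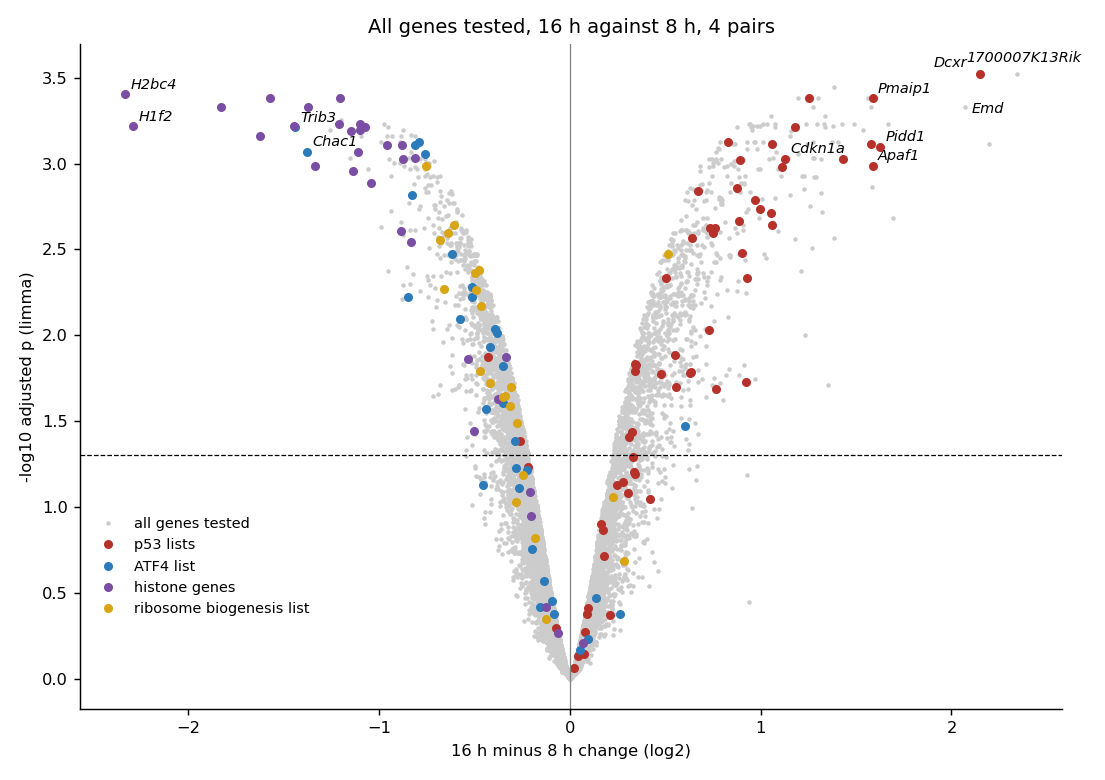
Each point is 1 of the 9457 genes tested, with the 16 h minus 8 h change (log2) across and the -log10 adjusted p of the limma fit upward; the dashed line is the threshold of 0.05. Members of the p53 lists lie mostly to the right, histone, ATF4 and ribosome biogenesis genes mostly to the left.

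p53 targets were the clearest group to rise. Of the 61 tested members of 4 lists of p53 targets, 40 rose and 2 fell, with a median change of 0.63. Without any 1 of the 8 arrays, between 32 and 37 rose, in fits where between 776 and 850 of all 9457 genes rose. The medians of the pairs were 0.62 for CTRL, 0.44 for BMP2, 0.72 for ADR and 0.46 for BMP2+ADR. The rise was therefore present in the pair labelled as receiving no agent. For 27 of the 61 genes the values at the times did not overlap, beside 22.3% of all genes.

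Among feedback and arrest genes, 14 of 17 rose and 1 fell, with a median change of 0.73. Cdkn1a, which encodes the cyclin-dependent kinase inhibitor p21, stood at 11.46 (CTRL), 12.78 (BMP2), 11.57 (ADR) and 12.66 (BMP2+ADR) at 8 h. At 16 h it stood at 12.77, 13.59, 12.95 and 13.65 in the same order. All 4 pairs rose, but the groups overlapped, because the BMP2 array at 8 h was slightly above the CTRL array at 16 h. Its change was 1.13 ± 0.11, a 2.18-fold rise (adjusted p 0.00094), and a second kept probe gave 0.87. Without the agent term in the fit, this call of Cdkn1a was lost.

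Trp53inp1, a nuclear protein that promotes p53-dependent death and autophagy, rose by 1.58 ± 0.14 (adjusted p 0.00077). Its levels ran from 8.73 to 9.34 at 8 h and from 10.55 to 10.75 at 16 h, without overlap. Ccng1, a cyclin that brings a phosphatase to Mdm2, rose by 1.43 ± 0.14, though its 3 kept probes ranged from 0.48 to 1.43. Ptp4a3, a tyrosine phosphatase, rose by 1.18 ± 0.09, from 7.96 to 9.51 at 8 h to between 9.23 and 10.39 at 16 h. The member that fell was Cdkn2a, the Ink4a/Arf locus, whose product Arf holds p53 up, by 0.26 on the log2 scale (adjusted p 0.041), a call lost without any 1 array.

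Mdm2, the ubiquitin ligase that marks p53 for degradation, was uneven between pairs. Its levels at 8 h were 12.67 (CTRL), 13.77 (BMP2), 12.66 (ADR) and 13.93 (BMP2+ADR), and at 16 h 13.92, 14.20, 13.86 and 14.10. By 16 h the 4 arrays lay close together, while at 8 h those with the BMP2 label were the higher ones. The changes in the pairs were 1.25, 0.44, 1.20 and 0.17, for a fitted change of 0.76 ± 0.18 (adjusted p 0.021).

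Among apoptosis targets, 10 of 15 rose and 1 fell, with a median change of 0.67. Pidd1 encodes the scaffold of the complex that activates caspase-2. It stood at 4.96, 6.18, 5.10 and 5.79 at 8 h (CTRL, BMP2, ADR, BMP2+ADR) and at 6.96, 7.33, 7.04 and 7.19 at 16 h. The groups did not overlap, and the pairs differed by 2.01, 1.15, 1.94 and 1.41. The fitted change was 1.62 ± 0.15 (adjusted p 0.00079), a 3.08-fold rise, from a level that was detected on only 2 of the 4 arrays at 8 h.

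Apaf1, the core of the apoptosome that activates caspase-9, stood at 6.64, 6.92, 6.48 and 7.02 at 8 h in the same order. At 16 h it stood at 8.45, 8.22, 8.59 and 8.14. The arrays without the BMP2 label were the lower ones at 8 h and the higher ones at 16 h. Its change was 1.59 ± 0.16 (adjusted p 0.0010). Averaged over the times it passed for neither agent label.

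Pmaip1, the BH3-only protein Noxa, stood at 6.43, 7.58, 6.94 and 7.86 at 8 h. At 16 h its levels were 8.22, 9.21, 8.23 and 9.51. The arrays with the BMP2 label were the higher ones at both times, and the change was 1.59 ± 0.10 (adjusted p 0.00042), with 1.51 from a second probe. Ei24, a p53-induced protein of the endoplasmic reticulum membrane, rose by 1.06 ± 0.10, from levels of 10.47 to 10.78 up to 11.43 to 11.74. Bid, a BH3-only protein that p53 is also known to regulate, fell by 0.43 on the log2 scale (adjusted p 0.013), a call lost without either BMP2+ADR array.

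DNA repair targets of p53 moved less as a group: 3 of 9 rose, 0 fell, and the median change was 0.16. Polk, a translesion polymerase, rose by 0.99 ± 0.12 (adjusted p 0.0018). Ercc5, the XPG endonuclease of nucleotide excision repair, rose by 0.93 ± 0.14 and Mgmt, which removes alkyl groups from guanine, by 0.76 ± 0.10. The damage sensors Xpc (0.10) and Ddb2 (0.09) did not pass.

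Among metabolic and other p53 targets, 13 of 20 rose and 0 fell, with a median change of 0.59. Dcxr, a reductase of sugars and carbonyls, stood at 7.34, 8.37, 7.07 and 8.12 at 8 h (CTRL, BMP2, ADR, BMP2+ADR). At 16 h it stood at 9.70, 10.33, 9.40 and 10.07. Every array at 16 h was above every array at 8 h, and within each time the arrays with the BMP2 label were the higher. The change was 2.15 ± 0.10, or 4.44-fold (adjusted p 0.00030), and the pairs lay between 1.95 and 2.36.

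Pltp, the phospholipid transfer protein, was not well above background on any array at 8 h and was detected on all 4 at 16 h. It thus met the detection filter only through the 16 h arrays. It was at least 1.84-fold higher at 16 h (adjusted p 0.00042), and a second probe gave a change of 0.30. Ckap2, a microtubule-associated protein, rose by 1.11 ± 0.11 and Abhd4, a lipase of N-acyl phospholipids, by 1.06 ± 0.13.

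**Figure D2:**
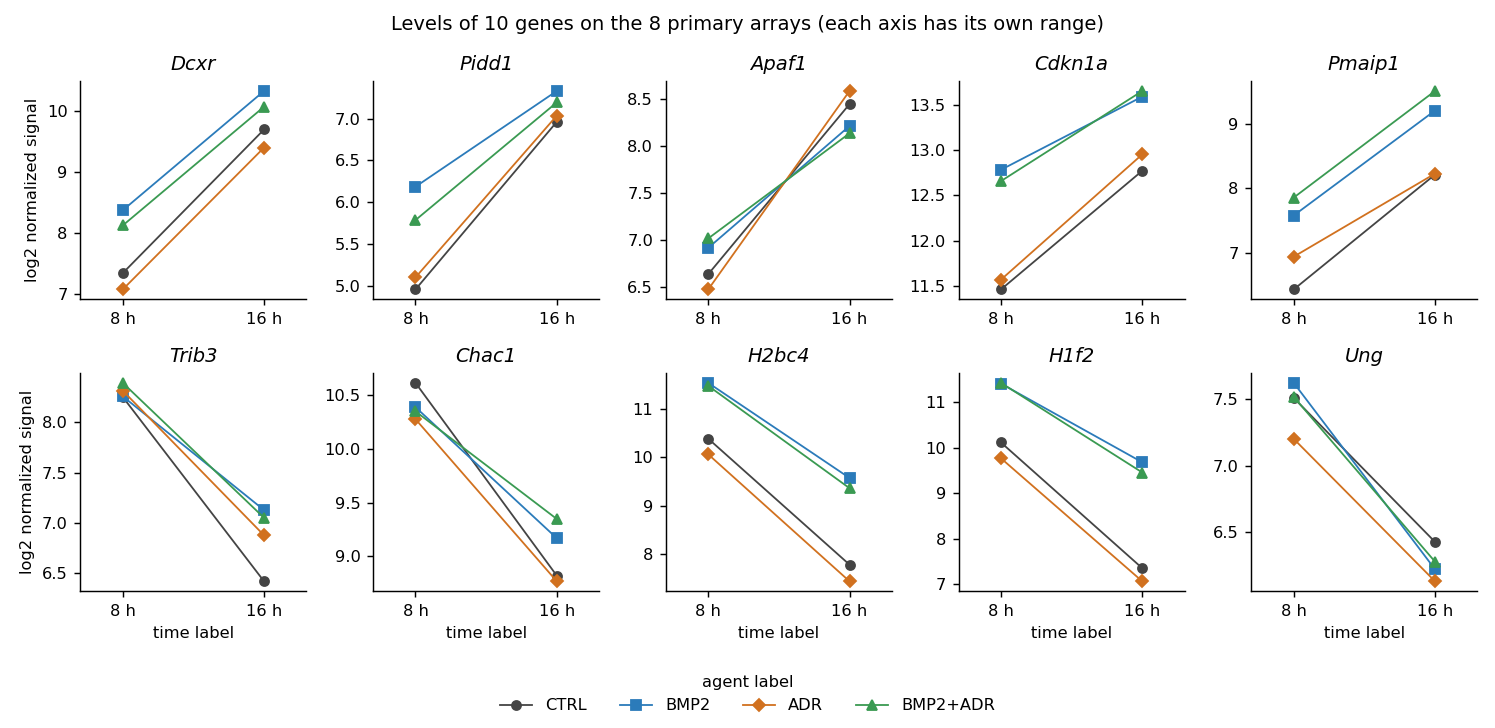
Each panel plots the log2 normalized signal of 1 gene on the 8 primary arrays, 8 h on the left and 16 h on the right, with a line joining the arrays of 1 agent label. Every line slopes up for the 5 genes in the upper row and down for the 5 in the lower row, and for Cdkn1a the BMP2 array at 8 h (12.78) reaches the CTRL level at 16 h (12.77).

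The promoter stretches of Ccng1 and Cdkn1a show what a p53 recognition decamer looks like near start sites of genes that rose. Both are from RefSeq on GRCm38.p6, 5′ to 3′ on the gene's strand, with each match to the decamer in capitals. The Ccng1 stretch is chr11:40755417-40755536 on the minus strand, from base -250 to -131 of the start site, and that of Cdkn1a is chr17:29090859-29090978 on the plus strand, from -120 to -1.
Ccng1: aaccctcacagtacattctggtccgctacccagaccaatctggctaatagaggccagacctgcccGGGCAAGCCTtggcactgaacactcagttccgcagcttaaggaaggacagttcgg
Cdkn1a: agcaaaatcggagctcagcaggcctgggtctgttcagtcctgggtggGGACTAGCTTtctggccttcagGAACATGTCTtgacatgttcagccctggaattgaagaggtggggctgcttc
Promoters (the 250 bases before and 50 after each start site) were on hand for 52 of the 61 tested p53 targets, and 14 of the 52 (26.9%) held at least 1 such match on either strand. The share was 8.17% among the 6668 tested genes with a promoter. A match is a description of letters and does not show binding.

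Of the 12 highest changes among the named genes, 7 were in none of the lists. One was that of 1700007K13Rik, an uncharacterised gene named by its cDNA clone. It was not well above background at 8 h (levels 4.64 to 5.39) and was detected on all 4 arrays at 16 h (6.81 to 7.88), at least 3.98-fold higher (adjusted p 0.00030). It thus met the detection filter only through the 16 h arrays. Emd, which encodes emerin of the inner nuclear membrane, rose by 2.07 ± 0.14, with levels of 6.76, 7.15, 7.96 and 7.07 at 8 h and 8.82, 9.03, 9.69 and 9.68 at 16 h. Its second probe gave 1.45.

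Ckmt1, a mitochondrial creatine kinase, was not well above background on any array at 8 h and was at least 2.16-fold higher at 16 h (adjusted p 0.0021). Ckmt1 also met the detection filter only through the 16 h arrays. Nipal4, a magnesium transporter, rose by 1.67 ± 0.12, and Atg9b, a membrane protein of autophagy, by 1.56 ± 0.09. Both were also higher with the BMP2 label, by 1.08 and 1.54. Tsc22d1, a transcription regulator first found as a TGF-beta response gene, rose by 1.58 ± 0.17, and Cdc42bpg, a kinase that binds the GTPase Cdc42, by 1.58 ± 0.11. Neither passed for the BMP2 label or the ADR label.

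ATF4 targets fell. Of 32 tested members, 18 fell and 1 rose, with a median change of -0.37, and between 14 and 17 fell without any 1 of the 8 arrays. The medians of the pairs were -0.47 (CTRL), -0.33 (BMP2), -0.37 (ADR) and -0.33 (BMP2+ADR). The member that rose was Cth, which makes cysteine from cystathionine, by 0.60 (adjusted p 0.034), a call lost without a CTRL or BMP2+ADR array.

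Trib3, a pseudokinase that feeds back on ATF4, stood at 8.25 (CTRL), 8.26 (BMP2), 8.32 (ADR) and 8.39 (BMP2+ADR) at 8 h. At 16 h it stood at 6.42, 7.13, 6.87 and 7.05. The 4 arrays at 8 h were nearly level, all at 16 h were lower, and the CTRL array was the lowest. The change was -1.44 ± 0.12, and the level at 8 h was 2.71-fold that at 16 h (adjusted p 0.00062).

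Chac1, which degrades glutathione, stood at 10.61, 10.39, 10.28 and 10.35 at 8 h and at 8.82, 9.17, 8.77 and 9.35 at 16 h. The groups did not overlap, and the change was -1.38 ± 0.13 (adjusted p 0.00085). The amino acid transporters Slc1a4 and Slc6a9 fell by 0.85 and 0.83 on the log2 scale, with adjusted p of 0.0060 and 0.0015. Atf4 itself fell by 0.42 on the log2 scale (adjusted p 0.012). Ddit3 (-0.14) and Atf3 (0.26), stress-induced factors downstream of ATF4, did not pass.

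The C/EBP-ATF response element (CARE, searched as TGATGNAA on both strands) is the site that ATF4 binds with a C/EBP partner. It is shown in 3 ATF4 targets that fell, from RefSeq on GRCm38.p6, 5′ to 3′ on the gene's strand, with the match in capitals (here read on the opposite strand). The Chac1 stretch is chr2:119350992-119351111 (plus strand, -250 to -131), the Trib3 site chr2:152344027-152344056 (minus strand, 5 to 34 after the start) and the Slc1a4 site chr11:20332698-20332727 (minus strand, -14 to 16).
Chac1: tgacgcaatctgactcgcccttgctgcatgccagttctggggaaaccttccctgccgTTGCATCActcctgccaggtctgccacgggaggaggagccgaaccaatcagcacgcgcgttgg
Trib3: tagctcaggtTTACATCAgccgggcgggga
Slc1a4: gcctcctgcgTTGCATCAtctccagcctgc
Of the 27 tested ATF4 targets with a promoter on hand, 12 (44.4%) held the element, against 2.59% of the 6668 tested genes. The genes with and without it both leaned down: 6 of the 12 with it fell (median change -0.26) and 9 of the 15 without it (median -0.42).

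Histone genes fell furthest. Of the 17 tested genes of the histone list, 12 fell and 0 rose, with a median of -0.81, and 10 of the 12 named genes with the lowest changes were histone genes. When all clustered histone genes were taken by symbol, a choice made after these values were seen, 27 of 32 fell and 0 rose (median -1.06). All 10 tested H2bc genes fell, as did 7 of 9 H2ac, 4 of 4 H3c and 5 of 8 H4c genes. These genes are near copies of each other, so 1 probe may read several of them, and the single genes are uncertain.

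H2bc4 stood at 10.39, 11.55, 10.07 and 11.48 at 8 h (CTRL, BMP2, ADR, BMP2+ADR) and at 7.78, 9.58, 7.43 and 9.36 at 16 h. It was lower at 16 h in every pair and higher with the BMP2 label at both times, and the groups did not overlap. Its change was -2.33 ± 0.13 (adjusted p 0.00039), and its second probe gave -0.55. H1f2, a linker histone, fell by 2.29 on the log2 scale, with levels of 9.77 to 11.42 at 8 h and 7.06 to 9.68 at 16 h.

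H2bc22, H2bc11, H2bc9, H2bc7, H2bc13 and H2bc12 fell by 1.83, 1.62, 1.57, 1.45, 1.37 and 1.34 on the log2 scale. All of these were also higher with the BMP2 label, by between 0.61 (H2bc12) and 1.27 (H2bc11). H2ac10 and H2ac23 each fell by 1.21, and H2ac23 went from 14.03 to 14.25 at 8 h to 12.87 to 12.99 at 16 h. They did not pass for the BMP2 label (adjusted p 0.30 and 0.29). H2ax, the variant phosphorylated at DNA breaks, fell by 0.81 on the log2 scale (adjusted p 0.0010).

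Stretches of the H2bc12 and H2bc11 promoters show the CCAAT boxes of these genes, in capitals on either strand. They run from -120 to -1 on the plus strand of chromosome 13, at chr13:22035701-22035820 for H2bc12 and chr13:22043078-22043197 for H2bc11 (RefSeq, GRCm38.p6).
H2bc12: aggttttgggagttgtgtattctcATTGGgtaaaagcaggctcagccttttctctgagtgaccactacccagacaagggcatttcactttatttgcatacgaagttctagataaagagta
H2bc11: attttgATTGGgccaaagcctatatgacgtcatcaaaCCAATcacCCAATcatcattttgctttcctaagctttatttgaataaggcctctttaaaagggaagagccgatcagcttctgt
All 8 tested H2bc genes with a promoter on hand held CCAAT, against 43.7% of the 6668 tested genes. The octamer ATTTGCAT, bound by Oct factors in H2b promoters, was found in 2 of the 8 and in 1.59% of tested genes.

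Among G1/S and replication genes (32 tested), 1 rose and 7 fell, beside 12.5% and 16.9% of all genes. Their median change was -0.09, and -0.00049 with median scaling. Ung, which removes uracil from DNA, fell by 1.20 on the log2 scale, from 7.20 to 7.62 at 8 h to 6.13 to 6.43 at 16 h. Its second probe gave -0.18. Chaf1b, a subunit of the factor that loads histones onto new DNA, and Ccne1, the cyclin of S phase entry, fell by 0.76 and 0.63 on the log2 scale. Cdc45, part of the replicative helicase, rose by 0.54.

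Of 27 G2/M and mitosis genes, 9 rose and 0 fell, with a median of 0.19. Leaving out 1 array lowered that count: 3 rose without either CTRL array (850 of all 9457 genes rose in that fit), 4 without either BMP2 or ADR array and 5 without either BMP2+ADR array. Hmmr, a spindle protein, rose by 0.65 ± 0.12, Nusap1, a microtubule-bundling protein, by 0.62 ± 0.08 and Ccnf, a cyclin of the SCF ubiquitin ligase, by 0.58 ± 0.13. A second probe of Nusap1 gave 0.33. Ube2c, the ubiquitin-conjugating enzyme of the anaphase-promoting complex, rose by 0.62 ± 0.19 (adjusted p 0.046), with 0.05 in the CTRL pair, 0.31 in the BMP2 pair, 0.77 in the ADR pair and 1.34 in the BMP2+ADR pair. Its change was 0.38 without a BMP2+ADR array. Ube2c kept its call only without a CTRL array, and Ccnf lost it without one. Among 17 homologous recombination and Fanconi genes 1 rose, Fanci (0.35), and 2 fell, H2ax and Xrcc3 (-0.68), beside 12.5% and 16.9% of all genes. Fanci kept its call only without a BMP2+ADR array.

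Of 23 ribosome biogenesis and MYC target genes, 16 fell and 1 rose, with a median of -0.35. Ncl (nucleolin), Rrp9, Nolc1 and Mybbp1a, all nucleolar proteins of rRNA production, fell by 0.76, 0.68, 0.66 and 0.64 on the log2 scale. The 3 probes of Mybbp1a ranged from -0.70 to 0.00. The member that rose was Srm, spermidine synthase (0.51).

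Of 23 glycolysis and hypoxia genes, 11 fell and 0 rose, with a median of -0.20. Without either CTRL array 5 fell, without either BMP2 or BMP2+ADR array 6, without either ADR array 9, and with median scaling 5. The counts of all genes that fell were lower in these fits too, from 1602 in the main fit. They were 951 (CTRL), 871 (BMP2), 973 (BMP2+ADR) and 876 (ADR) without an array of that label, and 577 with median scaling. Hk2, the hexokinase that opens glycolysis, stood at 11.02, 11.05, 10.27 and 10.72 at 8 h and at 10.11, 10.27, 9.15 and 9.70 at 16 h. Its change was -0.96 ± 0.08 (adjusted p 0.00069), and it was lower with the ADR label at both times. Ankrd37, a hypoxia-induced ankyrin protein, P4ha2, a collagen prolyl hydroxylase, and Pfkl, a phosphofructokinase, fell by 0.59, 0.51 and 0.49 on the log2 scale.

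Of 21 cholesterol and SREBP genes, 7 fell and 0 rose, with a median of -0.15. Without either CTRL array 2 fell (951 of all 9457 genes fell in that fit), without either BMP2 array 2, without either BMP2+ADR array 4 and without either ADR array 5. Dhcr7 and Lss, enzymes of sterol synthesis, fell by 0.57 and 0.47 on the log2 scale. Acaca, the first enzyme of fatty acid synthesis, fell by 0.35 and Fdps, which makes farnesyl diphosphate, by 0.33, and both kept the call only without a BMP2+ADR array.

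Of 15 genes known to rise when nutrients or growth factors are withdrawn, 6 rose and 0 fell, with a median of 0.33. Without either BMP2+ADR array 5 rose, and without any other array 3. In the first of these fits 839 of all 9457 genes rose, and in the others between 776 and 850. Btg1, an antiproliferative protein, rose by 1.01 ± 0.09, from 8.28 to 8.80 at 8 h up to 9.49 to 9.82 at 16 h. Sqstm1, the autophagy receptor p62, rose by 0.71 ± 0.09 and Ulk1, the kinase that starts autophagy, by 0.36 ± 0.08. Sesn3, a sestrin, was not well above background at 8 h and rose (adjusted p 0.048), with no fold given. Ulk1 lost its call without a CTRL or ADR array, and Sesn3 without any array but BMP2+ADR.

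**Figure D3:**
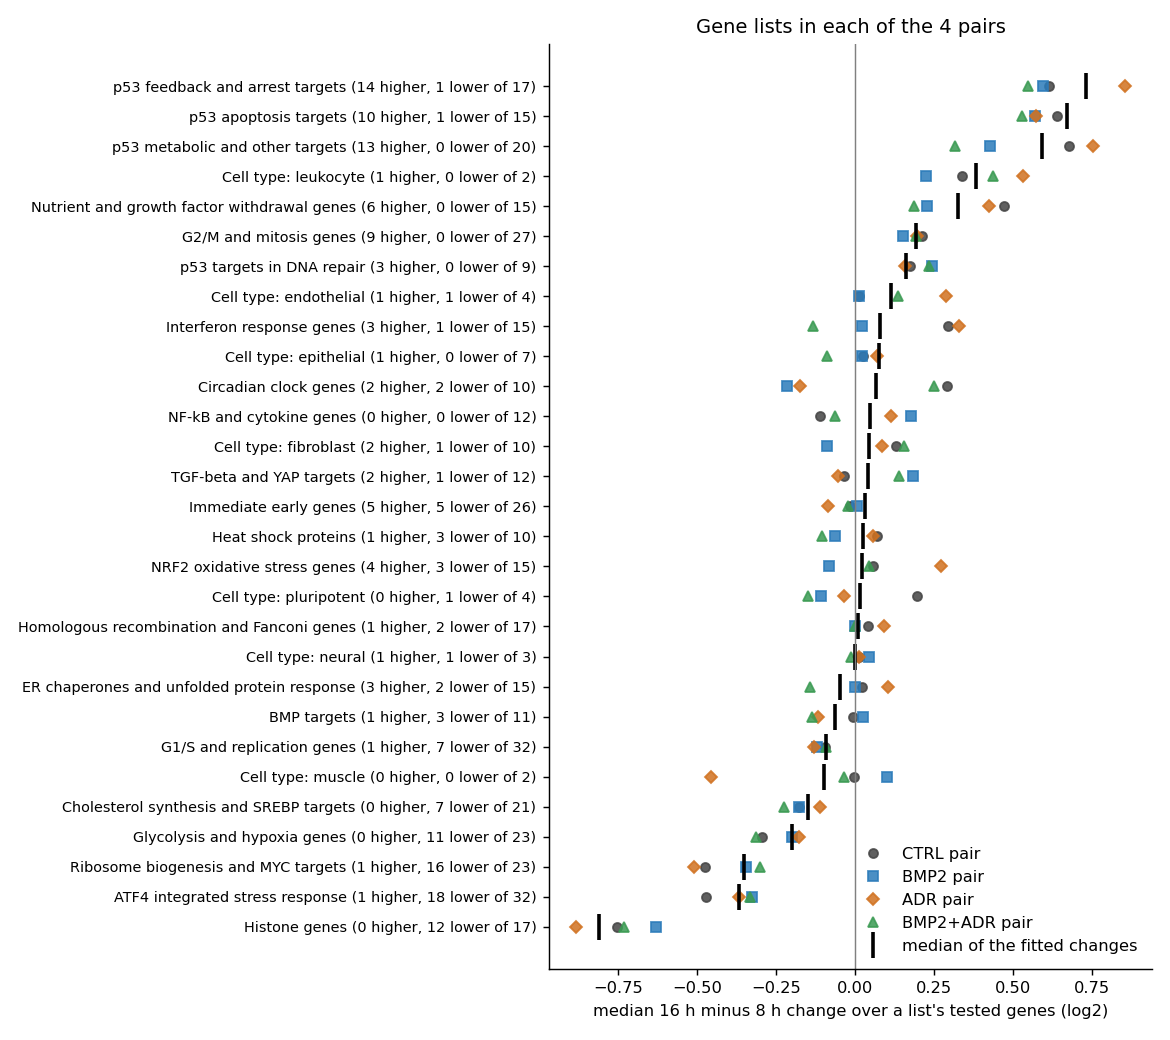
For each of the 29 gene lists, points give the median 16 h minus 8 h change (log2) over the list's tested genes in each pair of arrays and the black bar the median of the fitted changes; the counts in brackets are genes that rose and fell. The p53 feedback, apoptosis and metabolic lists lie right of 0 and the histone, ATF4 and ribosome lists left of 0 in all 4 pairs.

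The other stress lists moved in both directions or little. Their counts stand beside 12.5% of all genes that rose and 16.9% that fell. Of 15 NRF2 genes, 4 rose and 3 fell, and 1 fell without a BMP2 or ADR array. Nqo1, a quinone reductase, rose by 0.76 ± 0.09 and Hmox1, heme oxygenase, by 0.44 ± 0.09, while Mt2, a metallothionein, fell by 0.51 on the log2 scale. Among ER chaperones and unfolded protein response genes (15 tested), 3 rose and 2 fell. Edem1, which directs misfolded glycoproteins to degradation, rose by 0.68, Pdia3, a disulfide isomerase, by 0.28 and Sel1l, an adaptor of the same degradation route, by 0.27. Canx, the lectin chaperone calnexin, was not well above background at 16 h and was at least 1.14-fold lower there (adjusted p 0.019). Pdia3 and Sel1l lost the call without any 1 of the 8 arrays, and Canx without a BMP2 or BMP2+ADR array.

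Of 10 heat shock genes, 1 rose and 3 fell, beside 12.5% and 16.9% of all genes. Hspb8 rose by 0.34, and Hsph1 and Chordc1, which work with Hsp70 and Hsp90, fell by 0.47 and 0.40 on the log2 scale. Hspd1, the mitochondrial chaperonin, fell by 0.24, but its second probe gave 0.25, and its call was lost without any 1 array. Hspb8 lost its call without a CTRL or BMP2+ADR array. Of 26 immediate early genes, 5 rose and 5 fell (19.2% each), beside the same 12.5% and 16.9% of all genes. Fos rose by 0.84 ± 0.12 and Egr2 by 0.53 ± 0.14, and Klf2 fell by 0.73 on the log2 scale. Without any 1 array 3 of the 26 rose, and without a CTRL array 3 fell. Egr2 kept its call only without a BMP2 array. Of 10 circadian genes, Dbp and Tef, clock output factors, rose (Tef by 0.58, Dbp at least 1.29-fold from below background), and Clock and Bhlhe40 fell by 0.41 and 0.38 on the log2 scale. Bhlhe40 lost its call without a CTRL or BMP2 array.

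Of 15 interferon genes, 3 rose (Irgm2, a GTPase, at least 1.03-fold from below background, Ifi35 by 0.44 and Ddx58, an RNA sensor, by 0.36) and Bst2, a membrane tether of viruses, fell by 0.29 on the log2 scale. All 4 lost the call without an ADR array, and each kept it in at least 1 other such fit. Over all genes, 12.5% rose and 16.9% fell. Of 12 NF-kB and cytokine genes, 0 passed with limma. Nfkb2, an NF-kB subunit, changed in value by 0.23 (adjusted p 0.52) and Ccl2, a chemokine, by -0.22 (adjusted p 0.14).

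Of 11 BMP targets, 1 rose and 3 fell, beside 12.5% and 16.9% of all genes. Without a CTRL or ADR array 1 fell, and without a BMP2 or BMP2+ADR array 2. Sct rose by 0.78 ± 0.09, and Dlx2, a homeobox factor, fell by 0.84 on the log2 scale (its second probe gave -0.12). Dlx3 and Id3 fell by 0.38 and 0.29. Of 12 TGF-beta and YAP targets, 2 rose and 1 fell: Ltbp2, a matrix protein that binds fibrillin, rose by 1.27 ± 0.11, Pmepa1, a brake on TGF-beta signalling, by 0.52, and Ankrd1 fell by 0.38 on the log2 scale. Dlx3, Id3 and Ankrd1 lost the call without an ADR array and without others.

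Cell type markers were compared with the fibroblast label. Of 19 fibroblast markers with a probe, 10 were detected on at least 2 primary arrays and 7 on all 8, Vim, Fn1, Sparc, Pdgfra, Pdgfrb, Twist1 and Col5a1 among them. Another 9, Col1a1, Col1a2, Col3a1, Dcn and Thy1 among them, were detected on none. The summed signal of the list ran from 17625 to 24093 at 8 h and from 18398 to 23225 at 16 h, so the times overlapped. Of the 10 tested, Fn1 (0.56) and Col5a1 (0.24) rose and Pdgfra (-0.37) fell. Col5a1 lost the call without any 1 array and Pdgfra without a BMP2 or BMP2+ADR array.

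Markers of other cell types were mostly below detection. Of 17 epithelial markers, 7 were detected on at least 2 arrays. Esrp1, Krt18, Spint1, Spint2 and St14 were detected on all 8, and 9 others, Epcam, Cdh1 and Krt8 among them, on none. The sum of the epithelial list was 2452 to 5234 at 8 h and 2446 to 3730 at 16 h. Of the 7 tested, St14, a membrane protease, rose by 1.03. Of 13 endothelial markers 4 were detected, Egfl7, Flt1 and Mmrn2 on all 8 arrays, while Pecam1, Cdh5 and Kdr were detected on none. Their list had a sum of 1669 to 2510, then 1399 to 2374, and Mmrn2 rose by 0.74 and Egfl7 fell by 0.50 on the log2 scale. Of 10 leukocyte markers 2 were detected (Ptprc and Itgam on none; sum 366 to 390, then 400 to 472), and Cd14 rose by 0.43, a call kept only without a BMP2+ADR array. The leukocyte sums did not overlap between the times. Only Cd14 and Coro1a were detected on all 8 arrays and 8 of the 10 markers were detected on none, so these sums rest partly on background. The part of leukocytes in the results was not tested.

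Among pluripotency markers, 4 of 15 were detected, Klf2 and Tfcp2l1 on all 8 arrays, while Nanog and Zfp42 were detected on none. The sum was 911 to 1076, then 829 to 1033, and Klf2 fell. Muscle markers were detected for 2 of 10 (Des and Myod1 on none; sum 272 to 318, then 265 to 297), with Tnnt2 at -0.11 and Actc1 at -0.08, neither past the test. Neural markers were detected for 3 of 10, Nes and Tubb3 on all 8 arrays, while Gfap and Dcx were detected on none (sum 356 to 402, then 392 to 457). Nes rose by 0.67, and Tubb3 fell by 0.37 on the log2 scale, a call kept only without a CTRL array.

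Whether the change over time depended on an agent was asked with interaction terms. For the ADR label 0 genes passed (498 at an unadjusted p under 0.05; smallest adjusted p 0.90, limma), and for the BMP2 label 0 passed (593 at an unadjusted p under 0.05; smallest adjusted p 0.21). With 2 pairs on each side these tests show only strong differences, and they do not show that the changes were alike.

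Over the 61 p53 targets the median difference between pairs with and without the ADR label was 0.03. For Cdkn1a the difference, with the ADR label minus without, was 0.13 ± 0.23, and for Pidd1 0.10 ± 0.31 (adjusted p 1.00 for both in the limma fit). Between the pairs with and without the BMP2 label the median difference was -0.16. The change was lower with the BMP2 label for 40 of the 61 p53 targets, beside 50.4% of all genes tested and 58.0% of all genes that rose. Mdm2 showed the largest gap among the 61, 0.31 with the label against 1.22 without, a difference of -0.92 ± 0.16 (adjusted p 0.67). Among the alternatives run it passed with a robust variance trend (adjusted p 0.012).

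The genes nearest to an interaction with the BMP2 label went the other way. Ptprv, a receptor tyrosine phosphatase, was below detection on all arrays at 8 h (4.50 to 4.94). At 16 h it stood at 4.57 (CTRL), 6.52 (BMP2), 4.75 (ADR) and 6.79 (BMP2+ADR), so it was detected only on the arrays with the BMP2 label. Sytl1, a Rab27-binding protein, stood at 4.97 to 5.19 at 8 h and at 5.80, 7.30, 5.53 and 7.15 at 16 h, undetected at 8 h. Both interactions passed with median scaling and in the authors' log2 values. Since the signals at 8 h were background, no size is given.

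Krt7, a keratin, was detected only on the BMP2 (6.11) and BMP2+ADR (6.18) arrays at 16 h. Ptprv and Krt7 were thus tested only because of the arrays where they were high. Other genes undetected at 1 of the times met the detection filter in the same way. Among those that passed were Pltp, 1700007K13Rik, Ckmt1, Dbp, Sesn3 and Irgm2, through the 16 h arrays, and Canx, through the 8 h arrays. Jmy, a p53 cofactor that nucleates actin, and Rita1, a Notch pathway inhibitor, had interactions of 1.04 and 1.10, with changes of opposite sign with and without the label. For the ADR label the 5 smallest p-values belonged to Golt1b (undetected at 8 h), Zfp956 (undetected at 16 h), Lrrc20 (-0.89), Ak4 (-1.13) and Zswim5 (-0.88), all with adjusted p 0.90. Each of them was undetected on at least 1 array.

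**Figure D4:**
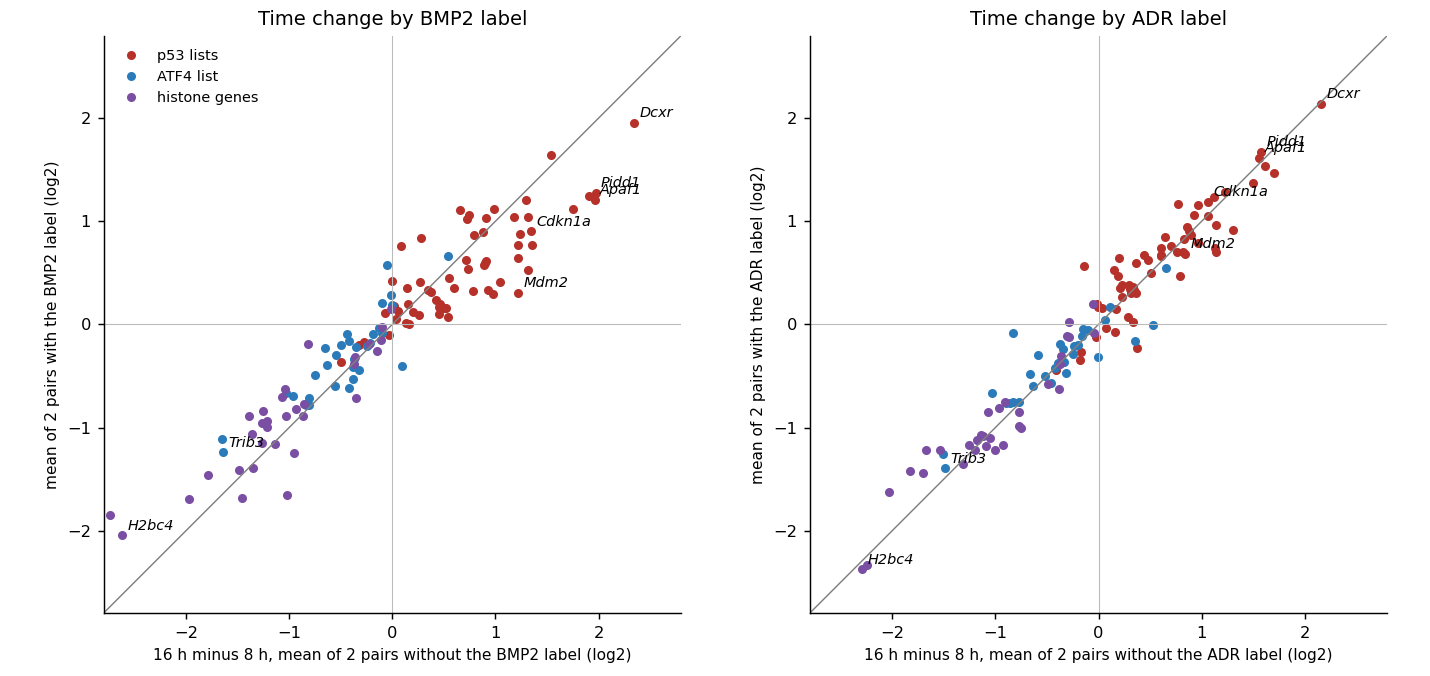
Each point is a gene of the p53 lists, the ATF4 list or the histone family, with its mean 16 h minus 8 h change (log2) in the 2 pairs without an agent label across and in the 2 pairs with it upward; the line marks equal change. In the left panel (BMP2 label) Mdm2 lies far below the line at 1.22 and 0.31, and in the right panel (ADR label) the p53 genes scatter about it.

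The 8 arrays labelled transformed share no array with this comparison and allow the same genes to be read in another setting. Their contrasts come from a limma fit of genotype label and agent. Each side of a contrast thus averages 1 Smad1f/f and 1 Smad1-/- array. There, BMP2+ADR minus ADR at 12 h raised 24.5% and lowered 33.3% of the 8841 genes tested in both sets. Of 58 p53 targets, 42 were higher and 3 lower (median 0.99), and of 30 ATF4 targets 2 were higher and 23 lower (median -0.92). Dcxr differed by 3.28 and Trib3 by -3.93, each in the same direction as with time in the primary set. In ADR at 12 h minus CTRL at 0 h, 0.328% of genes were higher and 0.113% lower, and of the 58 p53 targets 2 were higher and 0 lower. In BMP2+ADR minus BMP2 at 12 h, where 17.4% of genes were higher and 18.4% lower, 26 of the 58 were higher and 2 lower (median 0.32). In BMP2 at 12 h minus CTRL at 0 h, where 22.8% were higher and 25.4% lower, 34 were higher and 3 lower (median 0.56). These contrasts share arrays, and the last pair includes the array whose signals were recovered from the authors' log2 table.

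Not every group went the same way in both settings. In BMP2+ADR minus ADR, 24 of 31 histone genes were higher and 6 lower. All 10 H2bc genes were higher (median 1.21), while in the primary set all 10 fell with time. The 6 lower ones were all H2ac genes, of which 3 of 9 were higher (median -1.58). With time 7 of 9 H2ac genes fell, so this family leaned the same way in both settings. In BMP2+ADR minus ADR, 17 of 25 G2/M genes were lower and 3 higher, while with time in the primary set 9 of 27 rose and 0 fell. G1/S genes did not turn round in this way: 23 of 32 were lower and 3 higher there. With time 7 of these 32 fell and 1 rose, beside 16.9% and 12.5% of all genes. Interferon genes were higher in 12 of 14 cases there, against 3 of 15 here. Across the 8841 genes, the change with time had a Pearson correlation of 0.33 with BMP2+ADR minus ADR, 0.26 with BMP2 minus CTRL, 0.23 with BMP2+ADR minus BMP2 and 0.07 with ADR minus CTRL. These describe genes, which are not independent replicates and share probes and arrays.

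**Figure D5:**
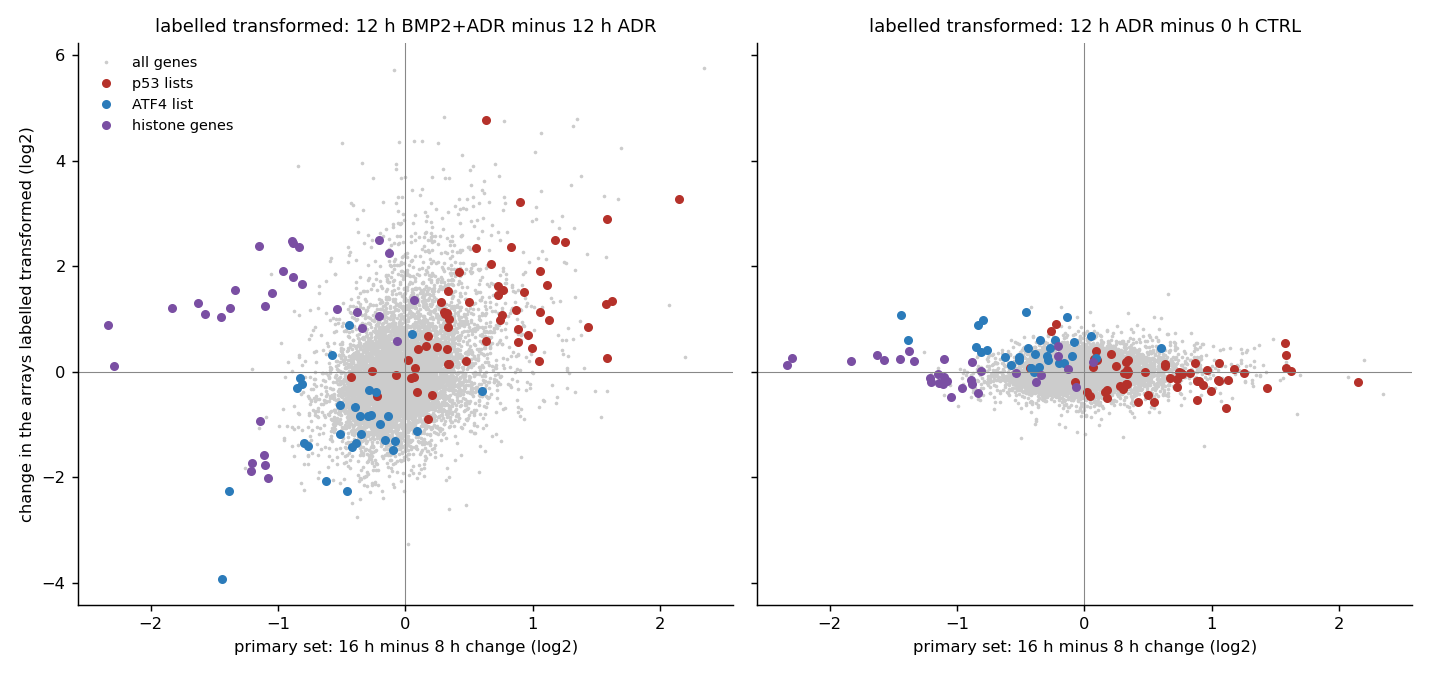
Each point is 1 of 8841 genes, with its 16 h minus 8 h change in the primary set (log2) across and, upward, its change in the arrays labelled transformed (log2), for BMP2+ADR minus ADR on the left and ADR minus CTRL on the right. On the left the p53 genes lie mostly at upper right (median 0.99) and most histone genes at upper left, and on the right the p53 genes scatter about 0 (median -0.03) and most ATF4 genes lie above it (median 0.39).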

How the data were processed

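Total RNA of 16 conditions was hybridised with Cy3 to Illumina BeadChip arrays, and the authors exported the signals with GenomeStudio 2011.1, per the submitters' processing notes. The deposited signals are linear bead intensities that the authors had not normalized, per the file headers. The deposited detection p-value columns hold 1 minus p and were turned round. The authors' deposited log2 table (each probe's median over the arrays is 0; its normalization is not given in the sources used here) was an alternative. The deposited signals of the transformed Smad1-/- BMP2 array equal, in 100% of probes, those of its Smad1f/f counterpart, so they were recovered from the log2 table. No primary array was touched by this except through joint normalization.

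Signals of all 16 arrays were normalized with limma's neqc (offset 16; limma 3.58.1, R 4.3.3), probes detected (p under 0.05) on at least 2 of the 8 primary arrays were kept, and the brightest probe stood for its gene. Of 24613 probes, 20984 named 1 gene, 1 several and 3628 none. The 9457 features tested were 8114 named genes and 1343 unnamed probes, all called genes in the text. The fit held agent label and time (3 residual degrees of freedom), and calls used a two-sided adjusted p under 0.05 over all genes. The interaction fits had 2. Where a group was below detection on all its arrays, the fold is a bound from the lowest detected signal. Such a gene met the filter only through the other time, and its p-value takes no account of that. The fits were tested on simulated data.

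The members, the 29 gene lists and the tests were chosen with earlier results of these data known. Named genes were 5 markers, the 12 highest and 12 lowest changes that passed with 1 sign in all pairs, from each list the 4 passing members that changed most in absolute value (2 where none passed), and the 5 smallest p-values of each interaction. Mdm2, Cdkn2a, Bid, Cth, Atf4, Atf3, Ddit3, Xpc, Ddb2 and Srm were added after their values were seen. Alternatives were other background, scaling, filter, probe, variance and fit choices and each array left out; the pairs split by BMP2 label were added after seeing the data. Promoters are RefSeq's (GRCm38.p6). Figures used matplotlib 3.10.9.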

Additional observations from a re-analysis of the deposited data

Results flagged for a closer look

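Among the 4 pairs, 6 named genes had 1 pair far from the other 3 by Dixon's criterion, of 116 genes and 29 lists looked at; chance flags about 1 in 20 groups. H2bc11 changed by -1.06 in the BMP2+ADR pair, H2bc9 by -1.24 in the ADR pair and Slc1a4 by -1.44 in the CTRL pair. Sel1l changed by 0.16 in the BMP2 pair, and Bst2 by -0.017 and Ccl2 by -0.59 in the BMP2+ADR pair.

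For 5 genes every pair without an agent label moved one way and every pair with it the other, with no adjusted p under 0.05 for the difference. Without minus with the ADR label, the time changes differed by 0.93 (Zfp956), 1.13 (Ak4) and 0.88 (Zswim5). Without minus with the BMP2 label they differed by -1.04 (Jmy) and -1.10 (Rita1). Zfp956 was undetected on all arrays at 16 h, so its value rests partly on background.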

How the results depend on the processing

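The count of changed genes, 2782, stayed within 1.5 times under the other background correction, normalization, detection, probe, variance and joint-fit choices (2499 to 3230). It was 4359 in the authors' log2 values, 1444 without the agent term, 101 with a log2 change of at least 1, 850 and 785 in the 2 pairs without and with the ADR label, and 1070 and 658 in those without and with the BMP2 label, a split added after seeing the data. Without 1 array it lay between 1652 (either ADR array) and 1812 (either BMP2+ADR array), with 1676 without either BMP2 array and 1801 without either CTRL array; the arrays of a pair give the same fit. For the interaction with the ADR label 0 genes passed in every alternative run. For the BMP2 label 2 passed with median scaling, 2 in the authors' values (Sytl1 and Ptprv in both) and 1 with the robust trend (Mdm2). Of 102 named genes that passed, 77 did so without any 1 array, the markers and the 12 highest and 12 lowest among them; the other 25 lost the call in at least 1 such fit. Hspd1 turned to 0.0059 with the mean of its probes. The median of the epithelial list, 0.076, turned to -0.042 in the authors' values, -0.033 in the pairs with the ADR label and -0.12 in those with the BMP2 label, and lay between -0.038 (without either CTRL array) and 0.19 (without either BMP2+ADR array). No slide block was run because the sources used here name no slide. The fit pairs arrays by agent label, and the 1444 genes without the agent term are its unpaired counterpart. Signals near background limit what can be said of dim genes.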
